A study of Mus musculus with 6 samples.

Results

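The 10 genes Krt31, Krt32, Krt33a, Krt33b, Krt34, Krt35, Krt81, Krt83, Krt85 and Krt86 encode keratins of the cortex and cuticle of the hair shaft. They were selected by gene symbol because several of them lead the first principal component of these same libraries, so their levels and their difference between genotypes are given as a description with no p-value, and no count of calls among them supports anything. All 10 were found among the 15667 genes of the deposited table, and all 10 were among the 14306 genes whose mean level reached 1 CPM (reads of a gene per 1000000 reads of the library) and that entered the comparison. The libraries came from bitten ear skin of B6;129-Adipoq tm1Chan/J mice, a line with a targeted null allele of the adiponectin gene in every cell. The WT group held 3 Adipo+/+ mice and the KO group 3 Adipo-/- littermates. All 6 were females aged 7 to 8 weeks, and each had borne 10 Ixodes scapularis nymphs for 48 h before 1 ear punch of 3.5 mm was taken at a bite site. Both groups were bitten, and unbitten skin was not analysed here.

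Hair keratins are intermediate filament proteins. An acidic type I keratin (Krt31 to Krt35 here) and a basic type II keratin (Krt81 to Krt86 here) pair to form the filament, and the filaments are then crosslinked by cysteine-rich keratin-associated proteins. In hair they are made while the follicle is growing (anagen), when cells leave the matrix at its base and turn into the medulla, cortex and cuticle of the shaft inside a moulding layer called the inner root sheath. Krt35 and Krt85 come on first, in the matrix and early cortex and cuticle, Krt32 belongs to the cuticle, and Krt31, Krt33a, Krt33b, Krt34, Krt81, Krt83 and Krt86 belong mainly to the cortex. In whole skin, fewer follicle cells and less RNA per follicle cell cannot be told apart.

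The 6 type I genes lie side by side on chromosome 11 between positions 100011199 and 100096224, all on the minus strand. The 4 type II genes lie on chromosome 15 between positions 101431014 and 101491512 (both GRCm38). RefSeq promoters (GRCm38.p6) were on hand for 4 of the 10 genes, all of type I. They are shown because these genes moved together between libraries and hold the same short motifs at nearly the same places. The other genes of the 10 moved with them. Motifs were looked for because their factors are known from hair keratin promoters, and the forms in capitals are those found in all 4. A link between the motifs and the levels was not tested. Each line gives the 250 bases before the start of the gene, 5′ to 3′ on the minus strand, and capitals mark TATAAA (the TATA box), CTTTGAA (a form of the LEF1/TCF motif) and TTTATG (a form bound by HOX13 group proteins). They span chr11:100050552-100050801 for Krt31, chr11:100088270-100088519 for Krt32, chr11:100029869-100030118 for Krt33b and chr11:100041555-100041804 for Krt34.
Krt31: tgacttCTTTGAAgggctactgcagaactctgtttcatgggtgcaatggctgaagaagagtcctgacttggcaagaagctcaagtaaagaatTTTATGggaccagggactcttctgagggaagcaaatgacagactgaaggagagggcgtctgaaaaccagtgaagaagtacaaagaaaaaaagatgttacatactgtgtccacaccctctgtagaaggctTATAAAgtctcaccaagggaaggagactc
Krt32: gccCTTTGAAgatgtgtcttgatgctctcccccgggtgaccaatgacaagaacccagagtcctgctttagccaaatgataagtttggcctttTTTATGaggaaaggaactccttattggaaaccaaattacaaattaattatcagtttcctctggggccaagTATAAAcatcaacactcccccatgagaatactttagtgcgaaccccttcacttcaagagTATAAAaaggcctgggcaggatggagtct
Krt33b: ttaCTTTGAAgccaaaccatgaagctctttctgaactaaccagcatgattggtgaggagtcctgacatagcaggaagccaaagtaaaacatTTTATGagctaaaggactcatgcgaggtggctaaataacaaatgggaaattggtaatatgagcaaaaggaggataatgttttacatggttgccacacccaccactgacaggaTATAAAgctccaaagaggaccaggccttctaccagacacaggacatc
Krt34: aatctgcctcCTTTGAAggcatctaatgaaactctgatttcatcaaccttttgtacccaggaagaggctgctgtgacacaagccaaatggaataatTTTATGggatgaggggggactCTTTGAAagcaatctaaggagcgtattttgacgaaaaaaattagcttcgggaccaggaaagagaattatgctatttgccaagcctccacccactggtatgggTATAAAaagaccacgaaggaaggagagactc

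Each motif was searched for on both strands from 250 bases before to 50 bases after the start. TATAAA stood in 4 of the 4 promoters, against 13.6% of the 32851 promoters of the RefSeq table. CTTTGAA also stood in 4 of 4, against 5.14%, and TTTATG in 4 of 4, against 11.9%. The other forms CTTTGAT and TTTACG stood in 0 of 4, against 3.73% and 3.03%, and CCAAT (the NFY motif) stood in Krt32 and Krt33b, against 37.4%. On the strand of the gene, the first CTTTGAA began 244 bases before the start in Krt31, 247 in Krt32, 247 in Krt33b and 240 in Krt34. TTTATG began 158 bases before the start in Krt31, 158 in Krt32, 159 in Krt33b and 154 in Krt34. The nearest TATAAA began 29 bases before the start in Krt31 and in Krt32, 31 in Krt34 and 47 in Krt33b. None of the motifs in capitals overlapped another. The 4 genes are related copies and share ancestry, so they are not independent examples, and a match of letters is not a binding site. Among the 5 other hair keratins with a promoter, TATAAA stood in 2, CTTTGAA in 1 and TTTATG in 4. Among the 8 inner root sheath genes with a promoter, TATAAA stood in 7, CTTTGAA in 2 and TTTATG in 1. Among 47 promoters of keratin-associated protein genes, TATAAA stood in 38, CTTTGAA in 9 and TTTATG in 14.

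The libraries held between 3403706 and 6591523 reads, as worked out from the smallest step in the CPM values, and 3 reads corresponded to between 0.455 and 0.881 CPM. Adipoq, the deleted gene, stood at 30.5, 63.7 and 49.6 CPM in WT replicates 1, 2 and 3, and at 0, 0.56 and 0 CPM in KO replicates 1, 2 and 3, as the labels say. Krt10, a keratin of the differentiating epidermis, was at 8608 to 15152 CPM and Krt14, of the basal layer, at 3526 to 8386 CPM, so the keratins that define epidermis were high in every library. WT replicate 3 stood apart from the other WT libraries on the first principal component, which held 52.9% of the variance. Its score was 64.6, against -48.8 and -36.8 for WT replicates 1 and 2 and -6.68, 31.9 and -4.28 for KO replicates 1, 2 and 3. Of the 10 hair keratins, 9 were among the 50 genes with the largest weights on this component. Krt86 ranked highest at 6 and Krt32 lowest at 82.

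The hair keratins were all but absent from 2 of the 3 WT libraries, highest in the other WT library, and between these levels in all 3 KO libraries. Their summed level was 0.484 CPM in WT replicate 1 and 1.02 CPM in WT replicate 2, or 2 and 5 reads in all. It was 2287 CPM in WT replicate 3. In the KO libraries it was 129.5 CPM in replicate 1, 764.3 CPM in replicate 2 and 85.2 CPM in replicate 3. The WT libraries thus held both the lowest and the highest values. As a share of all reads the sum came to 0.229% in WT replicate 3, 0.0764% in KO replicate 2, 0.013% in KO replicate 1 and 0.00852% in KO replicate 3. The plot of each gene by library shows this order gene by gene.

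**Figure D1:**
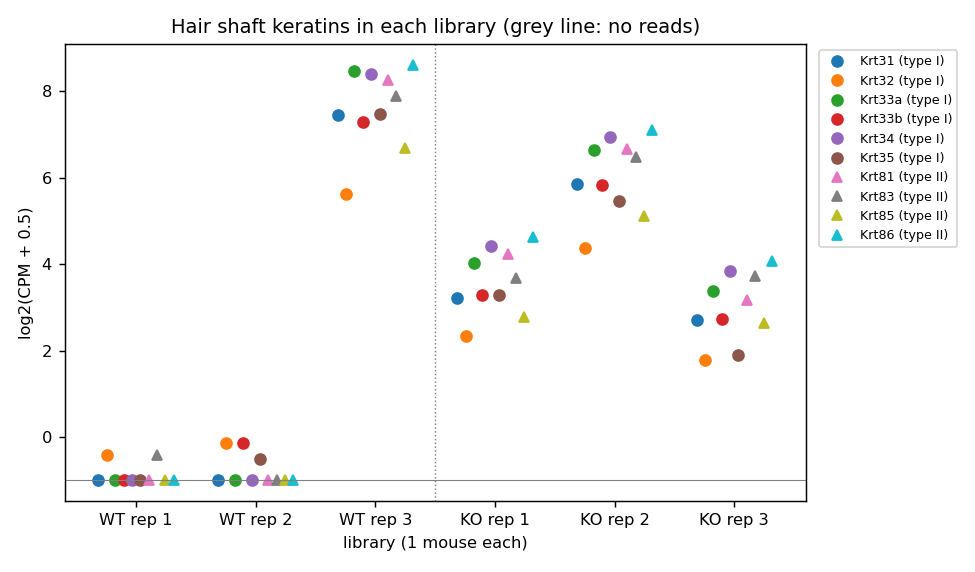
Level of each of the 10 hair keratins on the log2(CPM + 0.5) scale (vertical axis) in each of the 6 libraries (horizontal axis), with circles for type I and triangles for type II genes and a grey line at the value of a gene with no reads. All genes sit on or near that line in WT replicates 1 and 2, between 48.8 and 393 CPM in WT replicate 3, and between 2.94 and 137.7 CPM in the KO libraries.

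Krt35 and Krt85, the keratins that come on first, followed this order. Krt35 (chromosome 11, positions 100092192 to 100096224) was at 0, 0.203 and 176.7 CPM in WT replicates 1 to 3 and at 9.25, 43.7 and 3.23 CPM in KO replicates 1 to 3. Krt85 (chromosome 15, positions 101431014 to 101491303) was at 0, 0 and 103.3 CPM in WT and at 6.33, 34.4 and 5.72 CPM in KO. In both, WT replicate 3 was the highest library, KO replicate 2 the next, and WT replicates 1 and 2 the lowest, so the groups overlapped. The listed span of Krt85 covers 60290 bases and takes in or ends within Krt81, Krt83, Krt86 and Krt87, so that reads of these neighbours may have been assigned to it or taken from it. Krt32, the cuticle keratin (chromosome 11, positions 100080848 to 100088269), took the fewest reads of the 10 in WT replicate 3 and in all 3 KO libraries. It was at 0.242, 0.407 and 48.8 CPM in WT and at 4.55, 20.2 and 2.94 CPM in KO. Its 3 reads over WT replicates 1 and 2 were the most of any of the 10 genes there.

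Of the type I keratins of the cortex, Krt33a (chromosome 11, positions 100011199 to 100016212) was at 0, 0 and 353.6 CPM in WT and at 15.7, 100.03 and 9.88 CPM in KO. Krt34 (positions 100037348 to 100041554) was at 0, 0 and 337.6 CPM in WT and at 20.9, 122.5 and 13.8 CPM in KO. These took the most reads of the type I genes in every library that held them. Krt31 (positions 100046646 to 100050551) was at 0, 0 and 175.8 CPM in WT and at 8.75, 57.9 and 5.99 CPM in KO. Krt33b (positions 100023634 to 100029868) was at 0, 0.407 and 157.1 CPM in WT and at 9.30, 56.9 and 6.17 CPM in KO. All 4 kept the order of Krt35, with every KO library between WT replicate 3 and the other WT libraries.

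The type II keratins of the cortex did the same. Krt86 (chromosome 15, positions 101473478 to 101479983), the only one of the 10 on the plus strand, took the most reads of all, at 0, 0 and 392.6 CPM in WT and at 24.1, 137.7 and 16.3 CPM in KO. Krt81 (positions 101459061 to 101463765) was at 0, 0 and 304.8 CPM in WT and at 18.5, 101.4 and 8.43 CPM in KO. Krt83 (positions 101485130 to 101491512) was at 0.242, 0 and 236.2 CPM in WT and at 12.2, 89.5 and 12.8 CPM in KO. Krt83 was the only one of the 10 that was higher in KO replicate 3 than in KO replicate 1, by 12.8 against 12.2 CPM, which is within counting error at 43 and 81 reads.

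The order of the libraries was thus shared by all 10 genes: WT replicate 3, then KO replicate 2, then KO replicates 1 and 3, then WT replicates 1 and 2. Of all 14306 genes tested, 286 (1.999%) had it, and of the 14217 that are neither keratins nor keratin-associated proteins 222 (1.56%). The order was read from the 10 genes themselves, so that all 10 had it is a description, and these shares are not a test. Over the 10 genes, WT replicate 3 was 2.42 to 4.04 times KO replicate 2 (median 2.93). KO replicate 2 was 4.43 to 7.32 times KO replicate 1 (median 5.79) and 6.01 to 13.5 times KO replicate 3 (median 9.05). In 6 of the 10 genes (Krt31, Krt33a, Krt34, Krt81, Krt85 and Krt86) WT replicates 1 and 2 held no read at all. Pooled over both libraries, 3 reads would have been 0.332 CPM. Against that limit the pooled KO level was at least 40.9-fold higher in Krt85 and at least 157-fold higher in Krt86, with the other 4 between, where limits from reads cover counting error only. For the 4 genes with 1 to 3 reads, the ratio was 24.9 for Krt32 (exact 95% counting interval 8.30 to 123) and 95.2 for Krt33b (26.1 to 789), and for Krt35 and Krt83 it rested on a single read.

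Because the WT libraries lay on both sides of the KO libraries, the comparison of genotypes depended on the scale. On the log2(CPM + 0.5) scale the difference KO minus WT was positive in all 10 genes, from 1.15 (SE 1.54) for Krt32 to 3.06 (SE 2.39) for Krt86. Its median over the 10 genes was 2.29, against -0.03 over all genes tested. On the linear scale the WT mean was the higher in all 10 genes, by 1.79 to 3.15 times. For Krt86 it was 131 ± 227 CPM in WT and at 59.3 ± 68.0 CPM in KO (mean ± SD, n = 3 each), and for Krt35 59.0 ± 102 CPM in WT and at 18.7 ± 21.8 CPM in KO. The SD on the log2 scale was larger in WT than in KO in 10 of 10 genes, at 3.41 to 5.55 against 1.36 to 1.80.

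The SE of the log2 difference was of similar size to the difference itself in the 10 genes, at 1.54 to 2.39 against 1.15 to 3.06. With all 6 libraries, 0 of the 10 genes had every KO value above every WT value, and 422 of all genes tested did (2.95%). By limma with Benjamini-Hochberg adjustment over all genes, 2 genes differed at an adjusted p below 0.05 (0.014% of those tested), and 0 of the 10 hair keratins were among them. At an unadjusted p below 0.05, 152 genes were higher in KO (1.06%) and 260 lower (1.82%), and 0 of the 10 were among these either. With median-of-ratios rescaling in place of the total count, 50.6% of the genes at that level were lower in KO, against 63.1% as deposited. These counts use the values that chose the genes. With WT replicate 3 left out, every KO value was above WT replicates 1 and 2 in 10 of 10 hair keratins (8.05% of all genes tested), which restates the order of libraries they were chosen for. The log2 difference was then 3.12 to 6.27 with SE of 0.708 to 0.872, a size that rests on the pseudocount, since most WT values were then at 0. With the WT level of every gene set instead to 3 reads over both libraries, the median over the 10 genes was 6.31 on the log2 scale of pooled CPM. The plot of log2 differences with and without that library shows the shift.

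**Figure D2:**
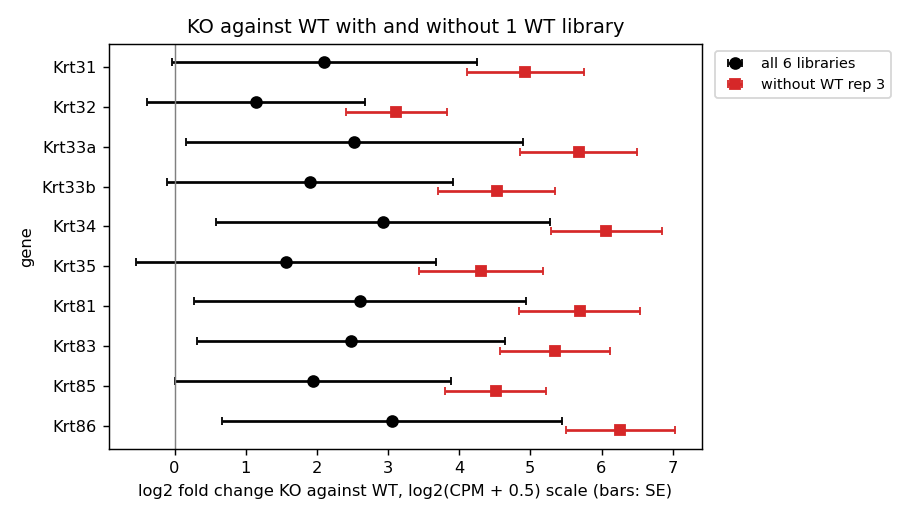
Difference KO minus WT on the log2(CPM + 0.5) scale (horizontal axis) for each of the 10 hair keratins (vertical axis), with bars for the SE, for all 6 libraries (black circles) and without WT replicate 3 (red squares). With all libraries the differences lie between 1.15 and 3.06 with wide bars, and without that library between 3.12 and 6.27 with bars of under 1.

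The make-up of the hair keratin reads was far more even than their amount. In the 4 libraries that held them, the sum of the 10 genes varied from 290 reads in KO replicate 3 to 13870 in WT replicate 3. The type I share of these reads was 54.7% in WT replicate 3 (Wilson 95% interval 53.8% to 55.5%), 52.8% in KO replicate 1 (49.5% to 56.1%), 52.5% in KO replicate 2 (50.6% to 54.4%) and 49.3% in KO replicate 3 (43.6% to 55.0%). The type I to type II ratio was thus 1.21, 1.12, 1.11 and 0.973 in the same order. The 3 KO intervals contained 52.8%, while that of KO replicate 2 and that of WT replicate 3 overlapped by less than 1 percentage point.

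Krt86 took the largest share in each of the 4 libraries, at 17.2% in WT replicate 3 and 18.6%, 18.0% and 19.1% in KO replicates 1, 2 and 3. Krt34 was at 14.8% in WT replicate 3 and 16.1%, 16.0% and 16.2% in the KO libraries. Krt31 and Krt33b each kept to a narrow band, from 6.76% to 7.69% and from 6.87% to 7.45%. Krt81 had the widest range of the type II cortex keratins after Krt83, from 9.90% in KO replicate 3 to 14.3% in KO replicate 1, but its intervals in the 4 libraries overlapped. Intervals that did not overlap between WT replicate 3 and a KO library were found for Krt35, Krt33a, Krt83 and Krt32. The intervals were not adjusted for the number of genes and libraries compared. Krt35, an early keratin, was at 7.73% in WT replicate 3 (7.30% to 8.19%), 7.14% in KO replicate 1 (5.60% to 9.07%), 5.72% in KO replicate 2 (4.91% to 6.66%) and 3.79% in KO replicate 3 (2.13% to 6.66%). Its intervals in KO replicates 2 and 3 did not reach that of WT replicate 3. The intervals of Krt33a did not overlap either, at 15.5% in WT replicate 3 (14.9% to 16.1%) against 13.1% in KO replicate 2 (11.9% to 14.4%). Nor did its interval in KO replicate 1 reach that of WT replicate 3, at 12.1% (10.2% to 14.5%). Krt83 was at 14.99% in KO replicate 3 (11.2% to 19.4%) and 10.3% in WT replicate 3 (9.84% to 10.8%). Krt32, of the cuticle, was at 3.51% in KO replicate 1 (2.47% to 4.97%) and 2.13% in WT replicate 3 (1.91% to 2.39%). Krt85, the other early keratin, was at 4.52% in WT replicate 3, 4.89% and 4.498% in KO replicates 1 and 2, and 6.71% in KO replicate 3. Between the KO libraries the intervals of Krt35 overlapped, as did those of Krt83, and each library is 1 mouse, so these shares describe libraries and not genotypes.

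**Figure D3:**
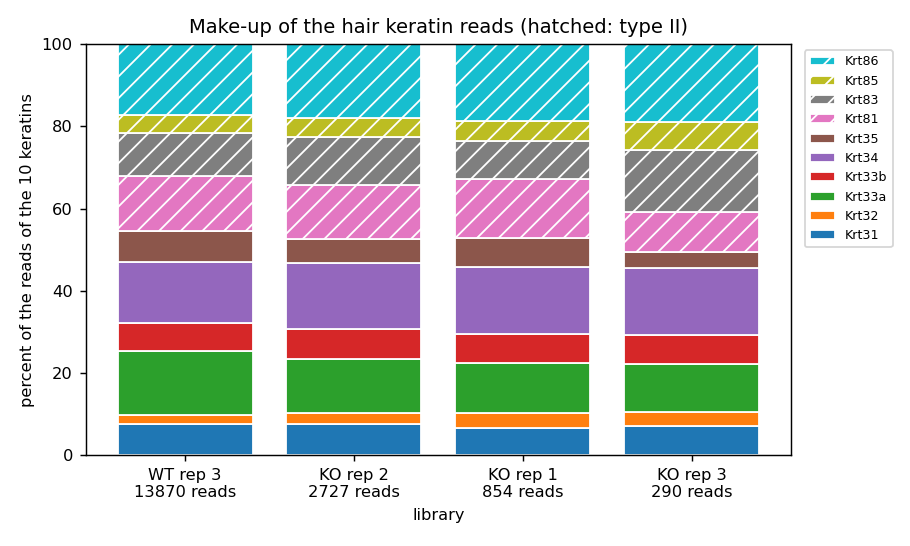
Percent of the reads of the 10 hair keratins (vertical axis, from 0 to 100) taken by each gene in the 4 libraries that held them (horizontal axis, with the number of reads), with hatching for type II genes. The boundary between type I and type II stays between 49.3% and 54.7% while the number of reads goes from 290 to 13870.

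Levels of different genes were compared per length, as CPM per kb of transcript (GENCODE M21), for the 9 genes that annotation holds, which leaves out Krt85. Over the 6 libraries the mean level per kb was 51.2 for Krt34, 48.5 for Krt86, 47.5 for Krt33a, 39.2 for Krt81, 33.3 for Krt83, 26.2 for Krt31, 24.2 for Krt33b, 22.6 for Krt35 and 7.72 for Krt32. WT replicate 3 carries most of these means, and the order differed between libraries, as Krt33a ranked 1 in WT replicate 3, 3 in KO replicate 2 and 4 in KO replicates 1 and 3. Within this order, 3 steps held in all 4 libraries with reads. Krt34 was above Krt86 by 1.03 to 1.09 times, Krt83 above Krt31 by 1.21 to 1.92 times and Krt35 above Krt32 by 1.06 to 3.4996 times. The lowest ratios of the first and last pair came from KO replicate 3. They rested on 47 and 55 reads for Krt34 and Krt86 and on 11 and 10 for Krt35 and Krt32, within counting error. Krt31 was above Krt33b in 2 of 4 libraries, so these neighbours did not differ beyond their spread. The other 4 neighbouring pairs kept their order in 3 of 4. The levels of several genes also depend on how shared reads were divided. Of all stretches of 75 bases in the transcript, those found in another hair keratin made up 35.5% in Krt81, 33.5% in Krt86, 24.7% in Krt34, 19.1% in Krt31, 14.4% in Krt33a, 12.5% in Krt83 and 11.02% in Krt33b. The closest pair was Krt81 and Krt86. In Krt35 the share was 1.76% and in Krt32 it was 0, and both followed the same order of libraries as the rest.

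Of the other hair keratins, 5 of 6 had the same order of libraries. Krt87, which lies between Krt85 and Krt81, was at 0, 0.203 and 210.4 CPM in WT and at 14.1, 68.8 and 4.99 CPM in KO. Krt82, a cuticle keratin, was at 0, 0 and 49.8 CPM in WT and at 1.67, 14.3 and 2.64 CPM in KO. Krt84, known from the tongue and nail as well as hair, was the exception, at 1.69, 1.02 and 11.9 CPM in WT and at 3.64, 13.5 and 6.46 CPM in KO. The difference KO minus WT had a median of 1.03 on the log2 scale over these 6 genes, and 0 of 6 were at an unadjusted p below 0.05. The order of libraries was shared by most hair and inner root sheath keratins of both clusters and not by the epidermal keratins Krt10, Krt14 and Krt5 among them. Among the 23 keratin genes of the table on chromosome 11, Krt10, Krt23, Krt15 and Krt14 were at 83.5 CPM or more in every library, and among the 26 on chromosome 15, Krt80 was at 711 to 1076 CPM and Krt5 at 4810 to 7322 CPM.

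**Figure D4:**
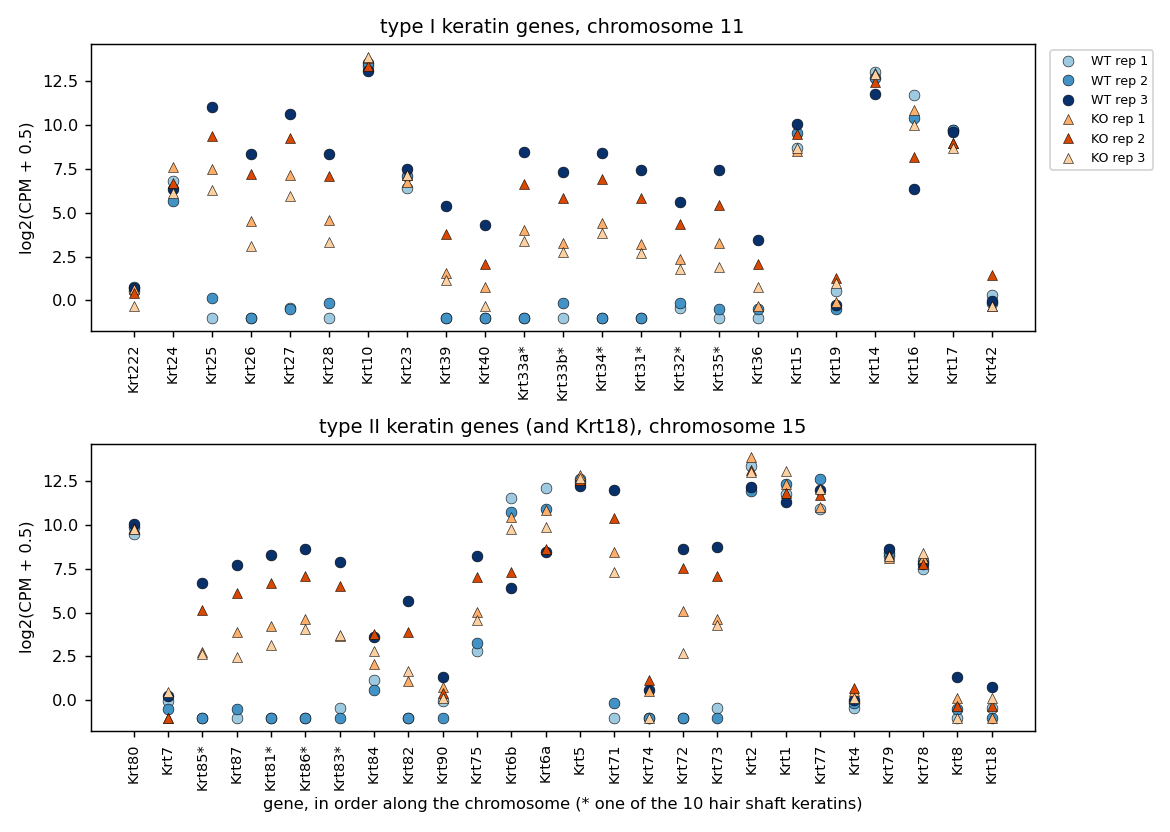
Level on the log2(CPM + 0.5) scale (vertical axis) of every keratin gene of the table in its order along chromosome 11 (upper panel, 23 genes) and chromosome 15 (lower panel, 26 genes), with circles for the 3 WT and triangles for the 3 KO libraries and an asterisk on each of the 10 hair keratins. Starred genes and inner root sheath keratins, except Krt74, have WT replicate 3 on top and WT replicates 1 and 2 at the bottom. Krt10, Krt14, Krt5 and Krt80 are high in all 6.

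The keratin-associated proteins, which crosslink the filaments, went with the keratins. Of the 52 listed genes, 49 were tested. All 49 were highest in WT replicate 3, and 45 had no read in WT replicates 1 and 2. Neither property was counted over all genes. Some passed the filter of 1 CPM only through WT replicate 3, such as Krtap19-2, at 14.3 CPM there and at most 0.152 CPM elsewhere. The order of the 10 keratins was found in 41, against 1.999% of all genes tested. The median difference KO minus WT of the 49 on the log2 scale was 0.95, and 0 of 49 were at an unadjusted p below 0.05. The gene whose profile over the 6 libraries was closest to the mean of the 10 keratins was also 1 of them. On log2(CPM + 0.5) values centred for each gene, Krtap4-7 differed from that mean by 0.104 on average over the libraries, at 0, 0 and 175.4 CPM in WT and at 11.99, 65.0 and 5.88 CPM in KO. The next were Gm11559 (0.110), Gm11563 (0.128), Krtap4-2 (0.132) and Krtap1-4 (0.162). The 10 keratins themselves differed from their mean by 0.074 to 0.925, and the median over all genes tested was 2.68. Of the genes that are neither keratins nor named as keratin-associated proteins, Crnn (0.218), Tchhl1 (0.245) and Padi3 (0.268) came after the 2 predicted genes. Padi3 encodes an enzyme that turns arginine into citrulline in the sheath and shaft.

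The inner root sheath, which moulds the shaft, had the same order in 8 of 8 tested genes and wider ranges. The sum of its 9 listed genes was 8.47, 9.36 and 22160 CPM in WT replicates 1 to 3 and 1786, 8959 and 903 CPM in the KO libraries. Krt71, a type II keratin of this sheath, was at 0, 0.407 and 4035 CPM in WT and at 356.4, 1318 and 159.5 CPM in KO. Trichohyalin (Tchh), which hardens the sheath and medulla, was at 7.99, 7.73 and 12906 CPM in WT and at 1005, 5754 and 558.8 CPM in KO. The median log2 difference KO minus WT was 3.42 with all libraries, and 0 of 8 were at an unadjusted p below 0.05. Without WT replicate 3, 8 of 8 were higher in KO at an unadjusted p below 0.05, against 2.24% of all genes tested, and 5 of 8 at an adjusted p below 0.05, against 0.112% (limma, Benjamini-Hochberg). All 8 were among the top 50 genes of the first component, which sets WT replicate 3 apart, so these counts restate that pattern and are not independent evidence of a difference between genotypes.

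Of 13 other genes of the shaft, 9 had the order of the keratins and 0 were at an unadjusted p below 0.05 with all 6 libraries (median log2 difference KO minus WT 1.56). Dsg4, a desmosomal cadherin of the cortex, was at 0, 0 and 93.3 CPM in WT and at 6.22, 30.8 and 2.35 CPM in KO. Gprc5d, a receptor-like protein of the cortex, was at 0, 0.203 and 113.1 CPM in WT and at 6.98, 36.4 and 4.70 CPM in KO. S100a3, a calcium-binding protein of the cuticle, was at 1.69, 0.61 and 272.8 CPM in WT and at 18.2, 87.2 and 11.5 CPM in KO. Tgm3, Selenbp1, Dsc2 and Odc1, which the epidermis or other cells also express, did not have this order. Without WT replicate 3, 9 of 13 were higher in KO at an unadjusted p below 0.05, as were 5 of 6 other hair keratins. The share of all genes tested was 2.24%. Of the 13, 6 were among the top 50 genes of the first component, and of the 6 other hair keratins 1 was. Genes with the order of the keratins were highest in WT replicate 3, so leaving it out raises their difference KO minus WT. These counts are therefore not independent evidence of a difference between genotypes.

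The transcription factors and signals that act on the hair matrix spanned a narrower range than the keratins, as the mean of the list lay between -0.67 and 1.17 on the log2 scale once centred over the libraries, and that of the keratins between -3.98 and 4.52. Of 25 in the table, 22 were highest in WT replicate 3, a property that was not counted over all genes. The full order of the keratins was found in 7 of the 24 tested, against 1.999% of all genes tested. Among the top 50 genes of the first component there were 0 of them. Hoxc13, a homeodomain factor that binds hair keratin promoters, was at 1.21, 3.46 and 67.3 CPM in WT and at 8.95, 29.98 and 8.81 CPM in KO. Msx2, a homeodomain factor of the matrix, was at 2.66, 4.88 and 54.6 CPM in WT and at 11.1, 20.7 and 7.34 CPM in KO. Foxn1, which drives keratin genes in the cortex, was at 16.0, 16.5 and 49.8 CPM in WT and at 21.7, 33.9 and 18.2 CPM in KO. All 3 had the order of the keratins, with a narrower range. Lef1, Dlx3, Bmpr1a and, on few reads, Shh had that order too. Lef1, the partner of beta-catenin in Wnt signalling, was at 1.45, 2.24 and 38.9 CPM in WT and at 3.49, 6.17 and 4.99 CPM in KO. Dlx3, a homeodomain factor of the matrix and shaft, was at 39.5, 50.04 and 267.9 CPM in WT and at 76.9, 98.1 and 65.8 CPM in KO. Shh, the signal of the matrix, was at 8.08 CPM in WT replicate 3 and at or below the 3-read floor in every other library. Jag2, a Notch ligand, was at 102 to 140 CPM over the 6 libraries. The median log2 difference KO minus WT of the 24 tested was -0.10, and 0 were at an unadjusted p below 0.05 (the smallest was 0.132, and its adjusted p was 0.998). Without WT replicate 3, 4 of 24 were higher in KO at that level, against 2.24% of all genes tested, and 0 at an adjusted p below 0.05. As 22 of the 25 were highest in that library, leaving it out raises their difference KO minus WT. The count without it is therefore not independent evidence of a difference between genotypes.

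Markers of other cells of the ear were set beside the keratins, and the plot of list levels by library gives them all. Melanocyte genes, which pigment the growing shaft, were at a sum of 178.8 CPM in WT replicate 3 and 37.8 to 54.1 CPM in the other 5 libraries. KO replicate 2 was not raised, at 54.1 CPM, though it held 764.3 CPM of hair keratins. Dct, a melanin enzyme, was at 2.42, 1.22 and 33.1 CPM in WT and at 3.03, 1.12 and 3.23 CPM in KO. Proliferation genes did not go with the keratins. Their summed level was lowest in WT replicate 3, at 597.7 CPM, and highest in KO replicate 1, at 1177 CPM. Epidermal markers were at a mean log2(CPM + 0.5) of 10.6 to 11.2 in all libraries.

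Some keratins of injured epidermis were lowest in the libraries richest in hair keratins. Krt16, an injury keratin also made in the outer root sheath, was at 3334, 1356 and 81.8 CPM in WT and at 1885, 290.1 and 1040 CPM in KO. Krt6b, its type II counterpart, was at 3022, 1674 and 83.1 CPM in WT and at 1425, 156.8 and 886.6 CPM in KO. In both, WT replicate 3 and KO replicate 2, the libraries richest in hair keratins, were the lowest. Both were picked from the list of outer root sheath and bulge genes after their values were seen. The mean log2 level of that list was flat, with centred means of -0.10 to 0.11. Its summed level was not flat, at 12527, 7234 and 3472 CPM in WT and at 6585, 2850 and 4325 CPM in KO. Krt6a of the same list was at 4343, 1932 and 351.4 CPM in WT and at 1849, 397.1 and 939.8 CPM in KO. Krt17 of the same list was not low in WT replicate 3, at 775.2 CPM against 418.4 to 499.4 CPM in KO, and Krt75 went with the hair keratins, at 6.54, 9.15 and 296.8 CPM in WT and at 32.8, 127.5 and 23.5 CPM in KO. Neutrophil genes were lowest within WT in replicate 3, the WT library richest in hair keratins. Within KO they were not lowest in replicate 2, the KO library richest in hair keratins. Of the neutrophil genes 8 of 9 were in the table, with a summed level of 626.4, 244.1 and 71.7 CPM in WT replicates 1 to 3 and 237.3, 137.9 and 133.7 CPM in the KO replicates. S100a9 was at 273.0, 69.2 and 4.62 CPM in WT and at 80.4, 24.7 and 20.3 CPM in KO, so KO replicate 2 was not below KO replicate 3, and no listed neutrophil gene was at 0 in any library. The part of these genes in the hair keratin levels was not tested. Fibroblast genes, at sums of 4618 to 7139 CPM, and skeletal muscle genes, at 2973 to 6172 CPM, were present in all libraries, as were those of ear cartilage, sebaceous gland and fat. At an unadjusted p below 0.05 (limma), 1.82% of all genes tested were lower in KO and 1.06% higher. Of the lists fixed here, fat and muscle each had 3 of 10 genes lower in KO at that level, and sebaceous gland 2 of 8. Adipoq, the deleted gene, is 1 of the 3 for fat. The list of outer root sheath and bulge had 1 of 14 lower (Krt17), and that of fibroblasts 1 of 8 higher (Col1a1). The lists of melanocytes, proliferation, epidermis, neutrophils and cartilage had none at that level. Only Adipoq passed the adjusted p among these lists.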

How the data were processed

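RNA from 1 punch of bitten ear skin per mouse was sequenced in paired ends. The authors trimmed the reads, aligned them to mm10 with STAR (version 2.7.3a per the submitters' processing notes) and shared them out over transcripts by Partek's expectation-maximization quantification, summed per gene. The deposited values are CPM, made by the authors from each gene count and the library total, plus an offset of 0.0001 that was subtracted here. The authors' model for the skin comparison and their use of read strand are not given in the sources used here, so overlapping genes can share reads. All sample columns of the table were used.

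In each library 91.7% to 92.6% of the low values (under 20 reads) lay within 0.1 of a whole number of reads, which gave the depth. The rest were fractions, so reads are estimates, and a count test was not the main test. Pairs of libraries differed by a chi-square of 8.72 to 45.1 for each degree of freedom, so none was a duplicate.

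KO was compared with WT on log2(CPM + 0.5) for genes whose mean level reached 1 CPM, by limma 3.58.1 (R 4.3.3; mean-variance trend, no covariate, two-sided, Benjamini-Hochberg over 14306 genes). The other 1361 genes of the table were not tested. This scale understates the change of low genes. Simulated data with known changes were used to test the limma fit. They gave every gene the same dispersion and set no library apart, so they do not speak for the hair keratins. Other steps used Python 3.11.15 and scipy 1.17.1. The labels give 1 sample per replicate number, and the methods of the study give 1 punch per mouse.

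The 10 genes and all gene lists were chosen with earlier results of these data known. Named genes are the 10, the genes of the follicle lists, Adipoq and the 5 closest profiles, overall and outside keratins and keratin-associated proteins, by the mean absolute difference of centred log2 values. In other lists the rule names the highest and lowest difference only. So Krt10, Krt14, Krt5, Krt80, Krt15, Krt23, Krt16, Krt6b, Krt6a, Krt75, Dct, S100a9, Krt17 and Col1a1 were picked once their values had been seen. Alternatives were other pseudocounts (0.1 and 2), no filter or a mean of at least 5 CPM, 2 rescalings, limma voom on implied reads, a replicate block, each library left out, and totals without the ribosomal RNA gene Rn45s (7.99% to 11.4% of reads). Shares of transcript stretches replaced a planned comparison of protein sequences.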

Additional observations from a re-analysis of the deposited data

How the results depend on the processing

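The median log2 difference KO minus WT of the 10 hair keratins stayed positive under the other pseudocounts, filters, rescalings, limma voom, the replicate block and each library left out. It was 3.60 and 1.13 with pseudocounts of 0.1 and 2, 2.86 by limma voom, and 0.82 to 5.14 with 1 library left out. The highest value came without WT replicate 3, and without WT replicate 1 or 2 it was 0.82 and 0.86. WT replicate 3 also decided the overlap, since 0 to 10 of the 10 had every KO value above every WT value with 1 library left out, and 10 came without it. Among the 4 follicle lists, 0 to 26 genes were higher in KO at an unadjusted p below 0.05 and 0 to 2 lower with 1 library left out, with 26 without WT replicate 3 and 2 without WT replicate 1.

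Over all genes, 0 to 16 passed the adjusted p with 1 library left out (0 without WT replicate 2, 16 without WT replicate 3), and 1 passed by limma voom. At an unadjusted p below 0.05 the range was 147 to 390 lower (147 without WT replicate 2) and 89 to 320 higher (89 without KO replicate 3, 320 without WT replicate 3). With the total without Rn45s the 10 genes held 0.249% of reads in WT replicate 3, 0.0145% in KO replicate 1 and 0.0856% in KO replicate 2.

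The correlations of same-numbered libraries, over genes and within-group deviations, were 0.38, -0.31 and -0.22. The highest of any WT and KO library was 0.45, for WT replicate 3 and KO replicate 2. These values cannot show whether replicate numbers pair the samples. With the replicate block the median of the 10 genes stayed at 2.29, 414 genes were lower at an unadjusted p below 0.05, and 1 gene of the 4 follicle lists was among them. Each library is 1 mouse and 1 punch, so differences between mice and between places on the ear cannot be told apart.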
